A study of Drosophila melanogaster with 12 samples.

Results

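Genes for the V-type ATPase were followed in S2R+ cells, a hemocyte-like line derived from Drosophila embryos, that were held for 24 h at 11, 14, 25 or 30 °C. Members were the genes whose symbol starts with Vha, reached through the CG identifier of each array probe, and 33 of the 13060 annotated genes with a probe met this rule. Each temperature had 3 biological replicates, each on its own single-colour Agilent array, 12 arrays in all. More cells were plated the colder the later temperature, so that densities would be similar at harvest, and the number of plated cells and temperature cannot be told apart. All 4 groups were the same line in the same medium, and temperature was the only treatment named. In a population of cells, less transcript per cell and fewer cells with the transcript cannot be told apart.

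The V-type ATPase is a rotary proton pump that acidifies lysosomes, endosomes and secretory vesicles. Its soluble V1 domain binds and hydrolyses ATP, and its membrane-embedded V0 domain carries protons. V1 and V0 can separate reversibly, which switches the pump off, and the assembled pump on the lysosome takes part in amino acid sensing by TORC1. Flies encode several subunits by more than a single gene: a broadly expressed copy is often accompanied by paralogs restricted to testis, neurons or single organs.

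At low temperature 7 of 9 broadly expressed V1 genes rose against the mean of 25 and 30 °C. None of the 5 broadly expressed V0 genes rose and 1 fell, while 18.3% of all features rose and 30.5% fell. At 30 °C, which is part of that mean, 5 of the 9 V1 genes fell relative to 25 °C, beside 6.46% of all features. Against 25 °C alone, 4 of the 9 V1 genes rose at 11 °C and 4 at 14 °C, beside 12.8% and 7.48% of all features. The low-temperature counts hold for arrays shifted to a common median. When arrays were shifted on their 75th percentile instead, all 9 V1 and 4 of the 5 V0 genes rose against that mean, beside 28.5% of all features. With the slide of each array as a fixed block, 5 of the 9 V1 genes rose, beside 1724 of 15114 features. Signals are given as log2 of the background-subtracted spot intensity, and a spot counts as well above background where the scanner software says so. A gene was tested if a probe of it was well above background on 2 or more of the 3 arrays at some temperature, which held for 25 of the 33 genes. Changes were fitted with limma over all 12 arrays, and p-values were adjusted by Benjamini-Hochberg over all 15114 features tested. Against the mean of 25 and 30 °C (high), 9 of the 25 were higher at the mean of 11 and 14 °C (low) at an adjusted p under 0.01 (36%), the threshold used throughout, beside 18.3% of all features, and 2 were lower, beside 30.5% of all features. With a fold change of at least 2 required as well, 3 were higher, beside 9.24% of all features, and 0 were lower, beside 11.4%. At an unadjusted p under 0.05, 14 genes were higher and 4 lower. In both directions together these were 18 of the 25, beside 9770 of the 15114 features. Among the 23 genes well above background on at least 1 low and 1 high array, a restriction chosen after the data were seen, 8 were higher, 2 lower, and 2 higher with a fold of at least 2, beside 17.1%, 30.4% and 7.75% of the features so restricted. The median change of the 25 genes was 0.32 on the log2 scale, against -0.17 for all features.

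That median of all features depended on how arrays were brought to a common scale. Arrays were shifted to a common median signal, as in the study. When they were shifted on their 75th percentile instead, the median of all features was 0.023, 17 of the 25 genes were higher and 1 was lower, beside 28.5% and 23.6% of all features. The share of calls that were higher at low temperature, over all features, was 54.7% under that scaling and 37.4% under median scaling. Relative to the median of all features the Vha genes stood at 0.49 under both scalings. This equality is fixed by construction, since each scaling shifts all features of an array by the same amount.

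**Figure D1:**
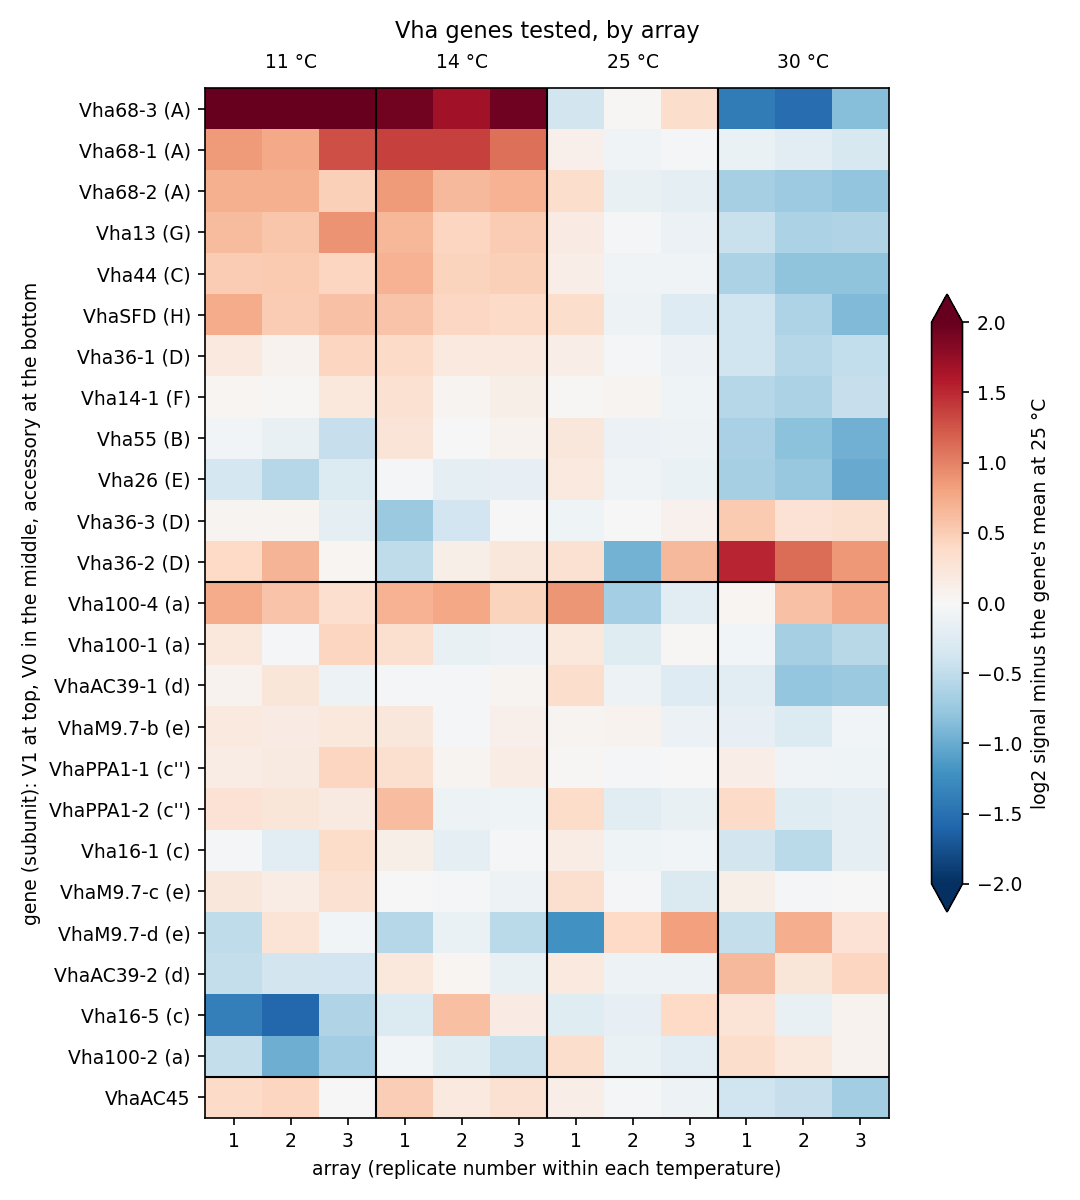
Heat map of the 25 Vha genes tested (rows, with the subunit letter) on the 12 arrays (columns, by temperature); colour is the log2 signal minus the gene's mean at 25 °C, clipped at 2 in either direction. The V1 genes at the top go from red at 11 and 14 °C to blue at 30 °C in most rows, and most V0 rows stay pale.

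The A subunit carries the catalytic nucleotide sites of V1, and its 3 genes had the largest rises. Vha68-1 (CG12403-RA) had log2 signals of 9.84, 9.74 and 10.27 at 11 °C, 10.35, 10.35 and 10.09 at 14 °C, 9.09, 8.91 and 8.95 at 25 °C, with 8.84, 8.77 and 8.66 at 30 °C. All 6 arrays at low temperature lay above all 6 at high temperature. The rise was 2.36-fold (log2 change 1.24 ± 0.11 SE, adjusted p = 2.41e-06).

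Vha68-2 (CG3762-RC), the main broadly expressed copy, had 13.88, 13.88 and 13.65 at 11 °C, 14.02, 13.81 and 13.85 at 14 °C, 13.51, 13.01 and 12.97 at 25 °C, with 12.50, 12.44 and 12.37 at 30 °C. Low and high arrays again did not overlap, although replicate 1 at 25 °C came close to the lowest low array. The rise was 2.07-fold (1.05 ± 0.11, adjusted p = 8.83e-06).

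Vha68-3 (CG5075-RA), a copy restricted to testis in the fly, had 6.08, 5.38 and 5.51 at 11 °C, 4.68, 4.43 and 4.69 at 14 °C, 2.37, 2.76 and 3.11 at 25 °C, with 1.34, 1.23 and 1.89 at 30 °C. Its signals were dim. They were well above background on all 6 low arrays and on none of the 6 high arrays, so its level at high temperature is only bounded. It passed the filter only through the low temperatures, a choice that by itself favours a difference, and its p rests on unmeasured levels. For this bound, each array of the dim group is set to at least the lowest signal of a probe well above background on it. On that basis the low temperatures were at least 3.08-fold higher, and 11 °C was at least 3.82-fold higher than 25 °C. The bounds carry no test, and the adjusted p of 1.36e-07 belongs to the limma change fitted on the unmeasured signals. Bounds and fit came from 2 probes, both of them well above background on every low array. Another probe of this gene carried no spot well above background at any temperature.

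**Figure D2:**
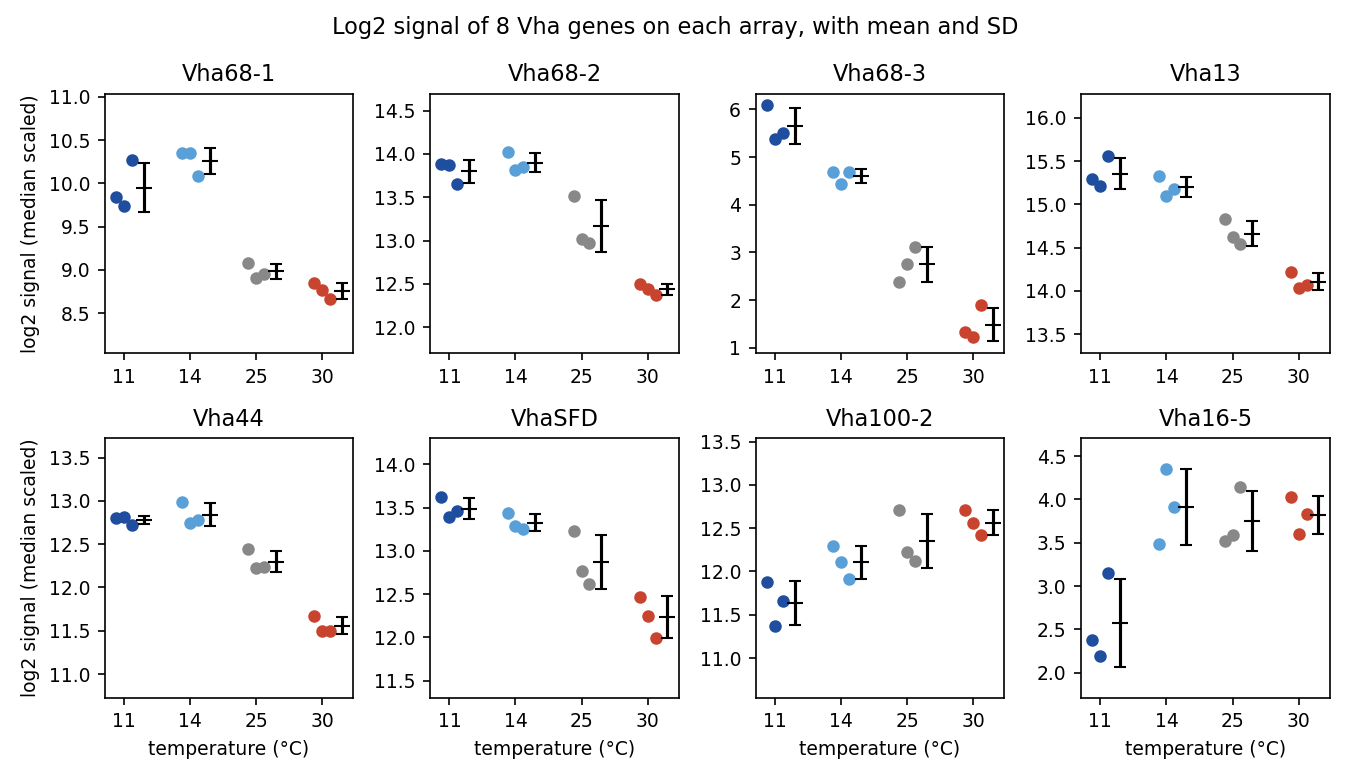
Log2 signal (vertical axes, each spanning at least 3 log2 units) of 8 Vha genes on each of the 12 arrays, by temperature in °C (horizontal axes); points are arrays in replicate order, and the bar beside them is the mean with the SD of 3 arrays. The 6 low points lie above the 6 high points for Vha68-1, Vha68-2, Vha68-3, Vha13, Vha44 and VhaSFD, whereas Vha100-2 runs the other way. The high points of Vha68-3 were not well above background.

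The stator of V1 is built from the peripheral stalk subunits E and G and from subunits C and H, which join V1 to V0. Vha13 (subunit G, CG6213-RA) had 15.29, 15.22 and 15.56 at 11 °C, 15.32, 15.09 and 15.17 at 14 °C, 14.83, 14.62 and 14.54 at 25 °C, with 14.22, 14.03 and 14.07 at 30 °C. The 4 temperatures separated into low, 25 °C and 30 °C, with no overlap between these 3 levels. The gene rose 1.86-fold (0.89 ± 0.09, adjusted p = 1.01e-05).

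Vha44 (subunit C) had 12.80, 12.82 and 12.73 at 11 °C, 12.99, 12.75 and 12.78 at 14 °C, 12.44, 12.23 and 12.23 at 25 °C, with 11.67, 11.50 and 11.50 at 30 °C. The same 3 levels appeared, and the 11 and 14 °C arrays were mixed. The rise was 1.84-fold (0.88 ± 0.08, adjusted p = 3.95e-06), with 0.72 to 1.14 among its 3 probes.

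VhaSFD (subunit H, which in yeast also silences the ATPase activity of free V1) had 13.62, 13.39 and 13.46 at 11 °C, 13.44, 13.28 and 13.25 at 14 °C, 13.23, 12.77 and 12.62 at 25 °C, with 12.47, 12.25 and 11.99 at 30 °C. Low and high arrays did not overlap, but replicate 1 at 25 °C was just below the lowest array at 14 °C. Its rise was 1.81-fold (0.85 ± 0.12, adjusted p = 0.00012). Among all 25 genes, 6 had all low arrays above all high arrays, beside 10.4% of all features, and 0 had all low arrays below all high arrays, beside 21.4%. The 6 include Vha68-3, which passed the filter only through the low arrays and whose high levels were unmeasured.

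The remaining broad V1 genes had smaller values. Vha36-1 (subunit D) and Vha14-1 (subunit F), which form the central rotor, rose by 0.49 ± 0.09 and 0.40 ± 0.08 (adjusted p = 0.000694 and 0.00113). Both calls were lost with slide as a fixed block (adjusted p = 0.0302 and 0.0172). Vha55 (subunit B, the non-catalytic partner of A) gave 0.35 ± 0.11 (adjusted p = 0.0162) and Vha26 (subunit E) gave 0.14 ± 0.10 (adjusted p = 0.238), neither past the threshold. Both passed it under 75th percentile scaling, with 0.54 (adjusted p = 0.000414) and 0.33 (adjusted p = 0.000226). In all, 7 of the 9 broad V1 genes rose and 0 fell in low against high, beside 18.3% and 30.5% of all features. Their median was 0.85, and 5 rose with the slide block, beside 1724 of 15114 features. Against 25 °C alone, 4 of the 9 rose at 11 °C and 4 at 14 °C, beside 12.8% and 7.48% of all features.

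For Vha55 the value depended on the probe. Its 5 probes gave changes from 0.13 to 0.78, and 2 of them passed the threshold on their own. The probe with 0.78 averaged 14.70, 14.69, 14.32 and 13.51 at 11, 14, 25 and 30 °C. The probe with 0.13 averaged 8.92, 9.67, 9.58 and 8.74 at 11, 14, 25 and 30 °C. Differences between 30 and 25 °C were alike for all 5, from -0.88 to -0.73. For the other genes with more than 1 probe kept, the probes of a gene spanned at most 0.42, and all had the same sign, those of Vha68-3 being set against unmeasured high levels.

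**Figure D3:**
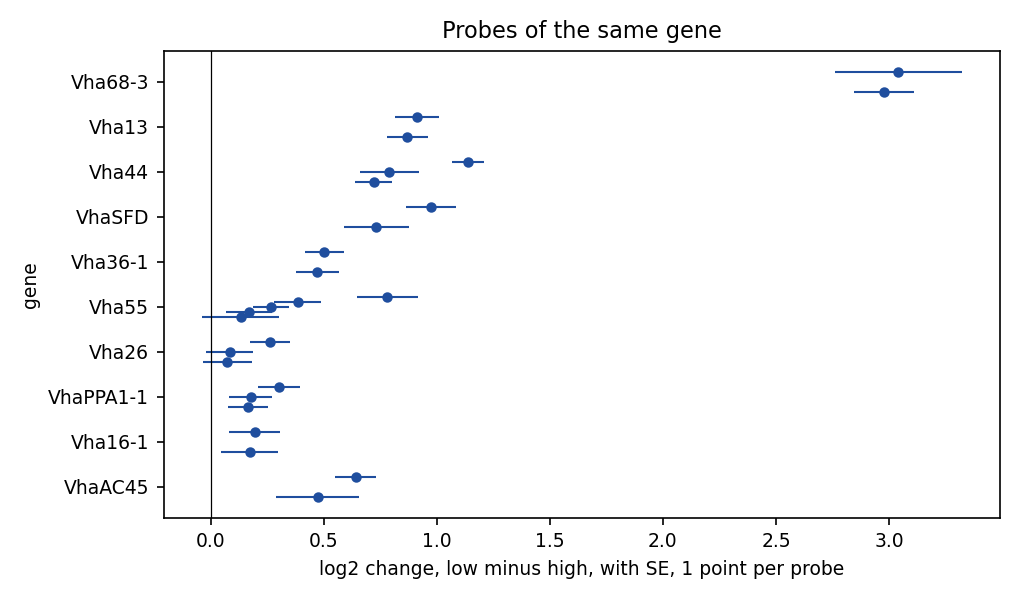
Log2 change, low minus high (horizontal axis, bars are the SE), of each probe kept, for the 10 Vha genes with more than 1 such probe (rows). The 5 probes of Vha55 spread from 0.13 to 0.78, and those of any other gene span at most 0.42, the span of Vha44.

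In V0, changes were small and of both signs. The 5 broad V0 genes had a median change of 0.22, 0.39 above that of all features, and 0 of them rose, beside 18.3% of all features. The proton-binding ring is built from subunit c (Vha16-1, 0.18 ± 0.12, adjusted p = 0.195) and subunit c'' (VhaPPA1-1, 0.22 ± 0.09, adjusted p = 0.0484). Subunit d, which seats the rotor on the ring, gave 0.32 ± 0.13 for VhaAC39-1 (adjusted p = 0.0598), and the small subunit e gave 0.22 ± 0.08 for VhaM9.7-b (adjusted p = 0.0283). None of these 4 passed the threshold. Under 75th percentile scaling all 4 did, with changes from 0.38 to 0.51, beside 28.5% of all features higher. The calls of these 4 genes thus rest on the scaling.

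Subunit a holds the half-channels for protons and carries the signals that send the pump to a given membrane. Its main broad gene, Vha100-2 (CG18617-RA), had 11.88, 11.37 and 11.66 at 11 °C, 12.30, 12.12 and 11.91 at 14 °C, 12.71, 12.22 and 12.12 at 25 °C, with 12.71, 12.56 and 12.42 at 30 °C. The 11 °C arrays were below all the others, while the 14, 25 and 30 °C arrays overlapped with their neighbours in temperature. The gene fell 1.50-fold at low temperature (-0.59 ± 0.13, adjusted p = 0.00266). It fell by 0.39 under 75th percentile scaling (adjusted p = 0.00164), whereas scaling on the spike-in control spots gave -0.35, not past the threshold (adjusted p = 0.0507). Vha100-1, the copy best known from neurons and synaptic vesicles, was well above background on all 12 arrays and gave 0.32 ± 0.14, not past the threshold (adjusted p = 0.0745).

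Paralogs of the same subunit were then set against each other within arrays, where the scaling of an array cancels. In 5 pairs both genes were well above background on every array, and the low and high arrays were compared by a two-sided exact permutation test, 6 against 6, with Benjamini-Hochberg adjustment over the 5 pairs. The permutations ignored the slides, which outside slide 1 held either low or high arrays only. The smallest p this test can give is 0.00216, and the adjusted p of a single pair cannot go below 0.0108, so that no pair could pass 0.01 alone and none did. For subunit a, the difference Vha100-1 minus Vha100-2 was from -1.47 to -0.43 on low arrays and from -2.42 to -1.30 on high arrays. These ranges overlapped at their edges, and the mean shifted by 0.91 in favour of Vha100-1 at low temperature (exact p = 0.00433, adjusted p = 0.0216). The shift was 0.80 on slide 1, which held replicate 1 of every temperature, and 0.96 on the others.

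For subunit d, VhaAC39-2, a testis-enriched copy, fell by 0.41 ± 0.10 on the log2 scale (adjusted p = 0.00500), with signals of 9.30, 9.41 and 9.39 at 11 °C, 9.99, 9.81 and 9.63 at 14 °C, 9.97, 9.67 and 9.68 at 25 °C, with 10.42, 10.02 and 10.20 at 30 °C. The 11 °C arrays were below all others, the 30 °C arrays were above all others, and 14 and 25 °C were mixed. Its call was lost under 75th percentile scaling (-0.21, adjusted p = 0.0268) and under spike-in scaling (-0.17, adjusted p = 0.207). Its difference to VhaAC39-1 moved by -0.73 between low and high arrays, with an exact p of 0.0325 (adjusted p = 0.0812). The shifts of the other 3 pairs were 0.19 for Vha68-1 minus Vha68-2 (exact p = 0.323, adjusted p = 0.403), -0.15 for VhaM9.7-c minus VhaM9.7-b (exact p = 0.158, adjusted p = 0.263) and -0.020 for VhaPPA1-2 minus VhaPPA1-1 (exact p = 0.883, adjusted p = 0.883).

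The contrast between the domains was also read within arrays. On each array, the mean of the 9 broad V1 genes minus the mean of the 5 broad V0 genes was taken, each gene relative to its own mean at 25 °C. At 11 °C this difference was 0.38, 0.39 and 0.36, while the 14 °C arrays gave 0.45, 0.45 and 0.42. It stayed between -0.01 and 0.01 on the 25 °C arrays and was -0.45, -0.35 and -0.51 at 30 °C. The temperatures did not overlap, and the arrays at 11 and 14 °C were the closest. Leaving out any 1 of the 14 genes gave 0.21 to 0.47 at 11 °C, 0.33 to 0.51 at 14 °C and -0.54 to -0.34 at 30 °C, the lowest value at 11 °C being without Vha100-2. These are descriptions of lists with known members and carry no test.

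**Figure D4:**
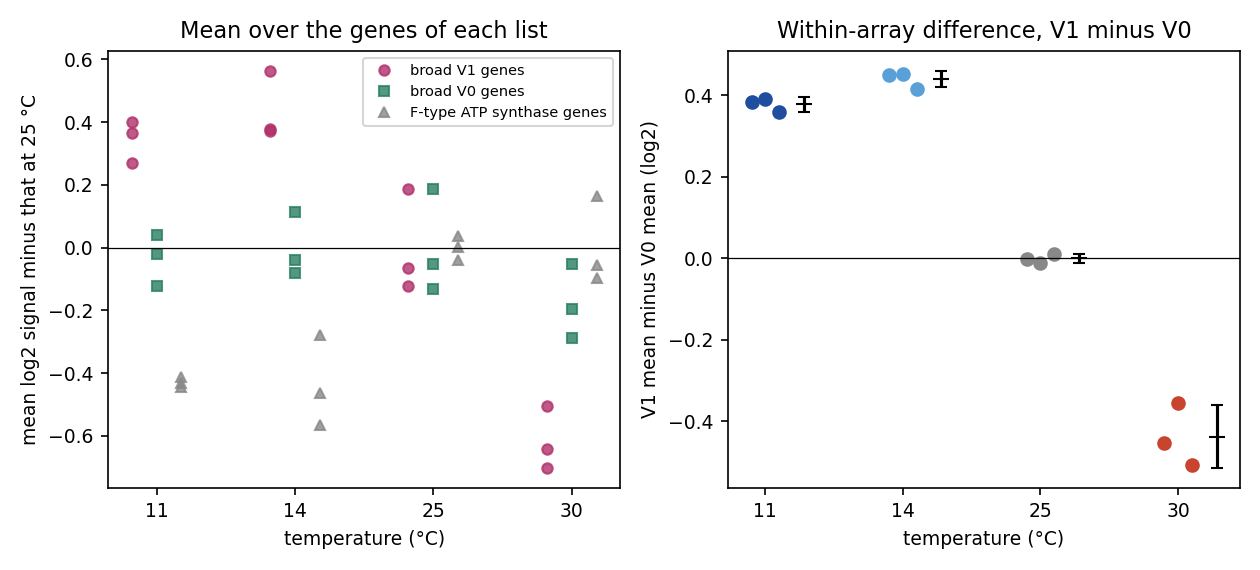
Left, mean log2 signal relative to 25 °C (vertical axis) of the 9 broad V1, 5 broad V0 and 13 F-type ATP synthase genes, 1 point per array, by temperature (horizontal axis). Right, the V1 mean minus the V0 mean on each array with mean and SD of 3 arrays: 0.38 at 11 °C, 0.44 at 14 °C, 0 at 25 °C by construction and -0.44 at 30 °C.

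Against 25 °C, the warm and the cool sides both contributed. The next 3 comparisons share the 25 °C arrays and are therefore not independent. At 30 °C, 6 of the 25 genes were lower than at 25 °C, beside 6.46% of all features, and 0 were higher, beside 6.09%. At an unadjusted p under 0.05, 11 were lower and 2 higher, with no share of all features at hand to set beside them. The 6 include Vha68-3, which was not well above background at either temperature, so that 5 of the 22 genes well above background on at least 1 array at both temperatures were lower. Of these 22, 0 passed with a fold of at least 2, beside 3.39% of all features lower and 4.17% higher. Vha26 fell 1.76-fold (-0.81 ± 0.14, adjusted p = 0.00178), Vha55 fell 1.75-fold (-0.81 ± 0.15, adjusted p = 0.00325) and Vha44 fell 1.67-fold (-0.74 ± 0.11, adjusted p = 0.000985). Vha68-2 and Vha14-1 fell by 0.73 and 0.55. All 9 broad V1 genes had negative differences, with a median of -0.64, beside -0.16 for the broad V0 genes and -0.077 for all features. Under spike-in scaling all 6 calls were lost, and the medians were -0.39 for the broad V1 genes and 0.085 for the broad V0 genes, the sign of the second being turned.

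Vha26 and Vha55, neither of which passed in low against high, had the largest falls at 30 °C among the broad genes. Vha26 had means of 12.63, 12.90, 13.03 and 12.22 at 11, 14, 25 and 30 °C (SD 0.09 to 0.17, n = 3), and Vha55 had 12.81, 13.14, 13.03 and 12.22 (SD 0.13 to 0.21, n = 3). For both genes the 30 °C arrays were below all the others, and the arrays at 25 °C were no lower than the lowest at 11 °C.

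At 14 °C, 5 genes were higher than at 25 °C, beside 7.48% of all features, and 0 were lower, beside 13.5%. With each array left out in turn, 2 to 6 were higher. At an unadjusted p under 0.05, 7 were higher and 0 lower, again with no share of all features at hand. The 5 genes were the 3 A subunit genes, Vha44 and Vha13. Vha68-1 rose 2.43-fold (1.28 ± 0.15, adjusted p = 0.000128), Vha68-2 1.66-fold and Vha44 1.46-fold. Vha68-3, not well above background on any array at 25 °C, was at least 1.83-fold higher, a bound without a test. Its adjusted p of 0.000266 belongs to the limma change fitted on the unmeasured signals. Among the 22 genes well above background on at least 1 array at both temperatures, 4 were higher, beside 6.22% of the features so restricted. Among these 22, Vha68-1 alone passed with a fold of at least 2, beside 5.33% of all features higher and 4.96% lower.

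At 11 °C, 5 genes were higher than at 25 °C, beside 12.8% of all features, and 2 were lower, beside 23.1%. With each array left out in turn, 3 to 7 were higher, and 75th percentile scaling gave 9 higher and 1 lower. The 5 were again the 3 A subunit genes, Vha44 and Vha13, with Vha68-1 rising 1.95-fold (0.97 ± 0.15, adjusted p = 0.000333). Lower were Vha100-2 (1.64-fold, adjusted p = 0.00843) and Vha16-5 (adjusted p = 0.00606). Vha16-5, a dim restricted copy of subunit c, had 2.38, 2.19 and 3.15 at 11 °C, 3.48, 4.36 and 3.92 at 14 °C, 3.52, 3.59 and 4.15 at 25 °C, with 4.03, 3.60 and 3.83 at 30 °C. It was well above background on 0 of 3 arrays at 11 °C and on 2 of 3 at 25 °C, so that 25 °C was at least 1.04-fold higher, a bound close to no change. With any single array left out, at most 1 gene was called lower. Among the 21 genes well above background on at least 1 array at both temperatures, 4 were higher and 1 lower, and 0 had a fold of at least 2, beside 8.73% of all features higher and 11.2% lower. Outside these, the bound of Vha68-3 was over 2-fold.

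Between 11 and 14 °C, 0 of the 25 genes differed at an adjusted p under 0.01, beside 1.5% of all features higher and 2.58% lower (0.953% and 1.22% with a fold of at least 2). At an unadjusted p under 0.05, 1 was higher and 3 lower at 11 °C, again with no share of all features at hand. Vha68-3, dim but well above background on all 6 arrays, gave 1.06 ± 0.25 (adjusted p = 0.0202). Vha16-5, not well above background at 11 °C, was at least 1.17-fold higher at 14 °C, a bound without a test. Its limma change, fitted on the unmeasured signals, had an adjusted p of 0.0150.

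**Figure D5:**
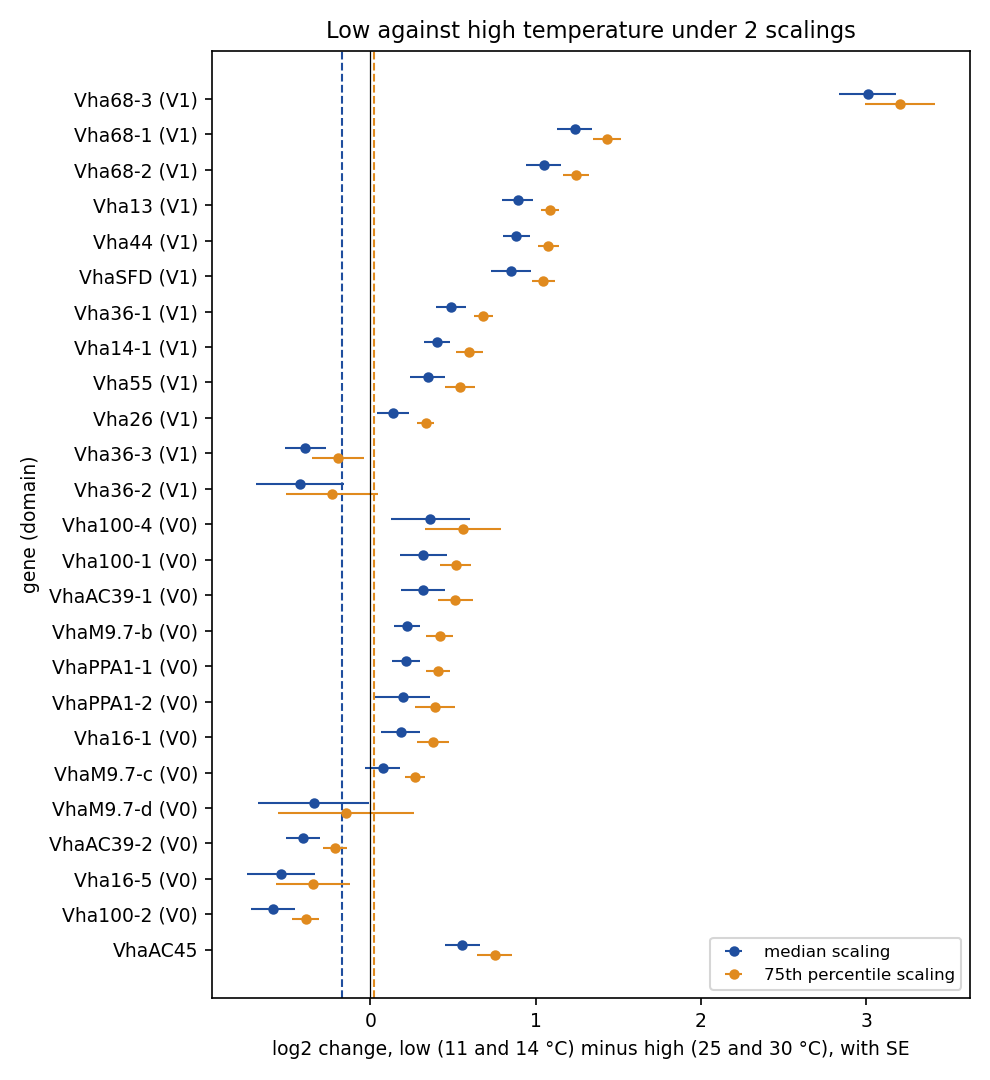
Log2 change, low minus high (horizontal axis, bars are the SE), of the 25 Vha genes tested (rows, with their domain) under median scaling and under 75th percentile scaling; dashed lines mark the median of all features under each, -0.17 and 0.023. Broad V1 genes stand to the right of both lines, and Vha100-2 to the left.

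Broad and restricted copies differed first in detection. All 15 genes classed as broad were detected by that flag on each of the 12 arrays. Of the 16 classed as restricted, 9 passed the filter. VhaAC39-2, VhaPPA1-2 and VhaM9.7-c were well above background on all 12 arrays, VhaM9.7-d on 11 and Vha36-3 on 10. Vha16-5 was so on 8 arrays, Vha68-3 on 6, Vha36-2 on 4 and Vha100-4 on 3. The 8 genes that did not pass were Vha100-3, Vha100-5, Vha14-2, Vha16-3 and VhaM9.7-a, with 0 arrays each, and Vha16-2, Vha16-4 and VhaAC45RP, with 3, 2 and 1. VhaM9.7-a, like Vha100-1, was put in neither class.

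Among the 9 restricted genes tested, 1 rose (Vha68-3, unmeasured at high temperature) and 1 fell (VhaAC39-2), beside 18.3% and 30.5% of all features. The median change was -0.34, beside 0.40 for the 15 broad genes. That median is the value of VhaM9.7-d (SE 0.34). Apart from VhaAC39-2, all negative changes came from genes not well above background on every array. The restricted genes that were so on every array gave -0.41 (VhaAC39-2), 0.20 (VhaPPA1-2) and 0.075 (VhaM9.7-c). Against 25 °C, the medians at 11 °C were 0.22 for restricted and 0.23 for broad genes. At 14 °C they were 0.037 and 0.17, and at 30 °C 0.18 and -0.55. Over the other scalings the restricted median was between -0.23 and -0.11, and after normexp background correction it was 0.0092. Vha36-2, a restricted copy of subunit D, was well above background on all 3 arrays at 30 °C, on 1 at 11 °C and on none at 14 and 25 °C. Its signals were 4.43, 4.02 and 3.77 at 30 °C and 3.20, 1.96 and 3.56 at 25 °C, at least 1.27-fold higher at 30 °C. Its limma change, fitted on the unmeasured signals at 25 °C, had an adjusted p of 0.0472 that did not pass.

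Of the accessory genes, VhaAC45, which escorts the pump and interacts with V0, rose 1.47-fold (0.56 ± 0.10, adjusted p = 0.000805), a call lost with slide as a fixed block (adjusted p = 0.0114). Of its 2 probes, 1 passed the threshold on its own (0.64), and the other did not (0.47, adjusted p = 0.0421). ATP6AP2, known before as VhaM8.9 and outside the symbol rule, had 16.25, 16.16 and 16.43 at 11 °C, 16.30, 16.12 and 16.14 at 14 °C, 15.77, 15.65 and 15.35 at 25 °C, with 15.21, 15.10 and 14.64 at 30 °C. Low and high arrays did not overlap, and the gene rose 1.93-fold (0.95 ± 0.12, adjusted p = 4.25e-05). No spot of a Vha gene was saturated on any array.

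In low against high, 18.3% of all features rose and 30.5% fell, with a median of -0.17, and the lists that follow are read beside these shares. Of 6 genes for assembly and regulation, 1 rose (CG5969) and 1 fell (Mitf) at low temperature, with a median of 0.12, and none reached a fold of 2. They were the rabconnectin genes Rbcn-3A and Rbcn-3B, with rogdi, mtd, CG5969 and Mitf. The last is a transcription factor known to drive Vha and lysosomal genes in flies. Mitf fell by 0.51 ± 0.11 SE (adjusted p = 0.00224), and any relation to the Vha genes was not tested. Of 29 lysosome and TORC1 genes tested, 4 rose and 10 fell, shares near those of all features, with a median of -0.24, and those with a fold of at least 2 were spin, a lysosomal membrane transporter, which rose 2.07-fold (adjusted p = 1.97e-05), and Hexo2, a hexosaminidase, which fell by 1.12 on the log2 scale (adjusted p = 1.43e-05). The 13 genes of the F-type ATP synthase, the rotary ATPase of mitochondria, had 9 that fell and 0 that rose, with a median of -0.43, and sun, its epsilon subunit, fell by 1.05 (adjusted p = 2.13e-06). Their median was between -0.32 and -0.20 under the other scalings but 0.24 after normexp correction, and under 75th percentile scaling 7 of the 13 fell and 1 rose. These genes are given for comparison only, since the lists were not tested against each other.

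Array quality was read from detection, floor and similarity. The lowest signal well above background, which enters the bounds of dim genes, differed between arrays. It ran from 2.99 for replicate 2 at 14 °C to 4.35 for replicate 2 at 11 °C, which also had the fewest spots well above background. Each array had 53.9% to 61.1% of its gene spots well above background, and arrays of a temperature correlated at 0.984 to 0.996 across features. Of 8 hemocyte markers, 5 were detected on every array (srp, Pxn, ush, pnr and He), as were the receptors fz and fz2, which S2R+ cells are known to express. So were 5 of 9 markers of other tissues (Mef2, elav, nSyb, Try29F and bam), and none of the 9 was undetected throughout. The hemocyte markers moved too: 5 of the 8 were lower at low temperature, with a median of -0.65, and so were 4 of the 8 other markers tested, with 1 higher and a median of -0.46, beside 30.5% of all features lower. Their part in the Vha results was not tested. Slide 1 held replicate 1 of each group, slide 2 the other arrays of 11 and 14 °C, and slide 3 those of 25 and 30 °C, so low and high can be compared within a slide only on slide 1. There, all 11 genes called in low against high had the same sign as on the other slides, with sizes from 0.42 to 3.53. The calls were made on all slides, slide 1 included, which by itself favours equal signs, so this count is no independent check. Of all 25 genes tested, 22 had the same sign on slide 1 and on the other slides. Vha68-1 changed by 1.13 on slide 1 and by 1.29 on the others, Vha44 by 0.84 and 0.90, and Vha100-2 by -0.62 and -0.57. With slide as a fixed block, 6 genes were higher and 2 lower, beside 1724 higher and 3907 lower of all 15114 features. The change estimated in this way equals the difference on slide 1, which had 1 array per temperature.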

How the data were processed

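RNA of 12 S2R+ cultures was labelled with Cy3 and hybridised to single-colour arrays. The authors deposited spot intensity values from Agilent Feature Extraction 10.7.3.1, and the processed signal used here is background-subtracted and not normalized between arrays. The deposited table of log2 values equalled the log2 processed signal plus a constant per array (100% of 31676 probes within 0.01) and served as an alternative.

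Control spots and outlier spots were left out, spots averaged per probe (32162 gene probes), and each array shifted to the median of the 25 °C arrays. A probe stayed in when, at some temperature, 2 or more of the 3 arrays had 50% or more of its spots above the background flag, and when 10 or more arrays gave it a value. Symbols came from a RefSeq table (60.6% of probes matched), whose assembly differs from the array's, so no coordinates are given. Probes of a gene were averaged, giving 15114 features, of which 9180 were annotated genes and the others kept the array's own identifiers. The log2 values of all 12 arrays entered limma (version 3.58.1, under R 4.3.3) with a mean per temperature (lmFit, then eBayes), and p-values were adjusted by Benjamini-Hochberg over all features. The fit was tested on simulated data. Broad and restricted classes were assigned by hand from general knowledge. Members and lists were chosen with earlier results of these data known. Genes with values of every array are those with a fold of at least 2 and an adjusted p under 0.01 in any contrast, then the largest changes among the other calls in low against high, up to 8. VhaAC39-2, Vha36-2, ATP6AP2 and other genes outside this rule were named after their values were seen. Bounds use, per array, the higher of the probe's signal and the lowest signal of a probe well above background. Precision is limited by 3 arrays per temperature. Alternatives covered scaling, background correction, filters, probe choice, slide, replicate number and each array left out. Normexp ran on median in place of mean spot signals.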

Additional observations from a re-analysis of the deposited data

How the results depend on the processing

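In low against high, 9 genes higher, 2 lower, 3 with a fold of at least 2 and the median of 0.32 moved with scaling and, further, with normexp correction. Shifting on the 75th percentile gave 17, 1, 6 and 0.51, shifting on the probes detected on every array 17, 1, 6 and 0.51, spike-in controls 15, 0, 6 and 0.55, and quantile normalization 16, 1, 6 and 0.44. The median of all features, -0.17, reversed to 0.023, 0.018 and 0.062 under the first 3. For 11 against 25 °C the 5 genes higher became 9 under each of the first 2 and 10 with quantile normalization. For 14 against 25 °C the 5 became 8 with spike-in controls and 9 with quantile normalization. For 30 against 25 °C the 6 lower became 0 with spike-in controls. Normexp correction, whose offset of 50 exceeds the arrays' median signals (26.0 to 43.8), called 0 of 15114 features in low against high (1466 at an unadjusted p under 0.05, 3 of them Vha genes), with a median SE of 0.45 in place of 0.13. All counts above became 0, the Vha median 0.86, that of all features 0.17, the V1 median minus the V0 median 0.55 in place of 0.64, and Vha100-2 and VhaAC39-2 reversed to 0.036 and 0.25. The cause was not tested. Without a filter, 1 gene was lower, the median was 0.18, and 3, 2 and 3 genes were called in 11, 14 and 30 against 25 °C. Fits of only the arrays compared called 2, 2 and 1. With slide as a fixed block, V1 minus V0 was 0.53, 2 and 3 genes were higher at 11 and 14 against 25 °C, and the calls of Vha14-1, Vha36-1 and VhaAC45 were lost (adjusted p = 0.0172, 0.0302 and 0.0114). As a random block, 11 genes were lower at 30 against 25 °C. Between 11 and 14 °C, 1 gene was called with quantile normalization, with the brightest probe and with the fixed slide block, and 2 with the random slide block, in place of 0. The median, 0.069, reversed to -0.049 with spike-in controls, to -0.033 with a signal over 100, and to -0.015 and -0.027 without replicates 2 and 3 at 14 °C.

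With each array left out in turn, low against high gave 9 to 11 genes higher, 1 to 3 lower, 3 with a fold of at least 2, medians of 0.24 to 0.38, and V1 minus V0 of 0.56 to 0.70. VhaAC39-2 was the gene whose call was lost by leaving out single arrays: replicate 1 at 11 °C, replicates 2 and 3 at 14 °C, or replicates 1 and 3 at 30 °C (adjusted p = 0.0123, 0.0123, 0.0160, 0.0125 and 0.0112). Calls were gained too. Vha55 passed without replicate 3 at 11 °C or replicate 1 at 25 °C (adjusted p = 0.00561 and 0.00640). Vha16-5 passed without replicate 3 at 11 °C, Vha36-3 without replicate 3 at 14 °C and Vha100-4 without replicate 1 at 25 °C (adjusted p = 0.00827, 0.00328 and 0.00834). Against 25 °C, 3 to 7 genes were higher at 11 °C, 2 to 6 at 14 °C, and 2 to 8 lower at 30 °C. At 11 °C the count was 3 without replicates 1 or 2 at 11 °C or replicates 2 or 3 at 25 °C. At 14 °C it was 2 without any single array at 14 °C or without replicates 2 or 3 at 25 °C. At 30 °C it was 3 without replicate 2 at 25 °C or replicates 1 or 3 at 30 °C, and 2 without replicate 2 there. Between 11 and 14 °C 0 to 1 gene was called, the 1 without replicate 3 at 11 °C, and their median ran from -0.027 to 0.069.

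Replicate 1 of every temperature shared slide 1, so that number is tied to a slide, and the 6 pairs of replicate 1 arrays had correlated deviations (0.30 to 0.57). Over all 18 same-numbered pairs the correlation was 0.09 to 0.57 and above 0.1 in 15, and 6 of 12 arrays correlated best with their own number, so the numbers were not taken to pair the samples. With the replicate number as a block, 10 genes were higher and 2 lower in low against high, Vha55 low against high being added (adjusted p = 0.00247), and 9 were lower at 30 against 25 °C. Counting only genes well above background on both sides, added after the data were seen, gave 8 higher and 2 lower in low against high. Dim genes are limited by signal over background, since 6 of the 25 genes tested were not well above it on every array.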
